A study of Mus musculus with 2 samples.

Results

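The class I genes of the major histocompatibility complex (MHC) were examined by RNA-seq of mature thymocytes from MHC-II0:CD8ab Tg mice. The set comprised 10 of the 48321 gene symbols counted, chosen by name from the families of class I genes, with earlier results of these data known: the light chain B2m, the classical heavy chains H2-K1 and H2-D1, the Qa-region genes H2-Q4, H2-Q6, and H2-Q7, the TL-region genes H2-T22 and H2-T23, the M-region gene H2-M3, and Cd1d1. Both libraries belonged to a single condition and were labelled replicate 1 and replicate 2. The mice were of C57Bl/6 background and lacked MHC class II (I-Ab-/-). In the endogenous Cd8a and Cd8b1 genes an exon of each had been replaced so that neither chain is made (Cd8Δab/Δab), while the remaining exons were left, and the mice expressed CD8α and CD8β cDNAs from the Rosa26 locus (Rosa26 8a/8b) after excision by Cd4-Cre, which acts in developing thymocytes, so that CD8 was expressed constitutively. The sample titles call the cells CD4-CD8- whereas the cell type label reads CD8+ mature thymocytes, and the study's methods describe sorted CD4- mature thymocytes. Neither the age of the mice nor the number of mice in each library was given. No wild-type library was analysed here, so the data give levels and their spread between the libraries, not an effect of the transgene.

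Class I molecules pair a heavy chain with β2-microglobulin, the product of B2m, without which most heavy chains do not reach the cell surface. The classical heavy chains present cytosolic peptides to CD8 T cells, and MHC class I on thymic cells selects the CD8 lineage. Nonclassical heavy chains have narrower duties. H2-T23 encodes Qa-1, which displays leader peptides of other class I chains to the CD94/NKG2 receptors, H2-Q7 encodes a Qa-2 antigen anchored to the membrane by a lipid, H2-T22 is recognised by a subset of γδ T cells, and H2-M3 presents N-formylated peptides. Cd1d1 presents lipids to invariant NKT (iNKT) cells, which are selected on double-positive thymocytes. Transcription of the peptide-presenting class I genes is driven by NLRC5 together with the RFX and NF-Y complexes on a conserved promoter module, next to elements read by NF-κB and by interferon regulatory factors.

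The promoters of the heavy chains are shown first because several of the genes shared short elements in the same order. Promoter sequences from RefSeq (GRCm38.p6) were found for 9 of the 10 genes, all but Cd1d1, and a window of 250 bases before each start was searched on both strands. The sequences below run 5′ to 3′ on the strand of the gene from base -200 to base -6 relative to the RefSeq start, and span 195 bases each. Capitals mark matches to CCAAT or its complement ATTGG, the letters bound by NF-Y, to TGACG, the core read by CREB and ATF factors, to GAAA, any 2 bases, and GAAA again, or the tighter GAANNGAAA, both of the interferon-response type, and to GGGNNTTCC or the same letters with 3 bases in the gap, both of the NF-κB type.
B2m (chr2:122147487-122147681, plus strand): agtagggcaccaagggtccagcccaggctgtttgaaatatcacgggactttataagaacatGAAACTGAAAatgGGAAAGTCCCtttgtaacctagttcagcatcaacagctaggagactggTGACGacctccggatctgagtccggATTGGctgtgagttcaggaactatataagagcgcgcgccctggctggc
H2-K1 (chr17:34000353-34000547, minus strand): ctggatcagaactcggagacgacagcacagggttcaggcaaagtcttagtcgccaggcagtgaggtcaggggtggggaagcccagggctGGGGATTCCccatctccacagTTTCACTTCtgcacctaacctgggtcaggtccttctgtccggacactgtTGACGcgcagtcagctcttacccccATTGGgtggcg
H2-Q4 (chr17:35379417-35379611, plus strand): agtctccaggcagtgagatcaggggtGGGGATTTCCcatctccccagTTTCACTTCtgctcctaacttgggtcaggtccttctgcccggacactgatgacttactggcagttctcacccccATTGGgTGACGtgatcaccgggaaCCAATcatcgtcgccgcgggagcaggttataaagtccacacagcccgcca
H2-Q6 (chr17:35424650-35424844, plus strand): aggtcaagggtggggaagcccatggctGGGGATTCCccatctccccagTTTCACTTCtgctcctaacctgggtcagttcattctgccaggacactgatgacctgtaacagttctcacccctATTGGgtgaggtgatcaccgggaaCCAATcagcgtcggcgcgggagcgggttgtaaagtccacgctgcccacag
H2-Q7 (chr17:35438955-35439149, plus strand): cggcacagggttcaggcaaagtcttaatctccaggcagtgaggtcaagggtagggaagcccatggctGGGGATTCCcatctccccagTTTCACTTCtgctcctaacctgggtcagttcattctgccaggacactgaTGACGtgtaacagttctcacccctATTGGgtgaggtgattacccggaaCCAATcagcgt
H2-T22 (chr17:36042748-36042942, minus strand): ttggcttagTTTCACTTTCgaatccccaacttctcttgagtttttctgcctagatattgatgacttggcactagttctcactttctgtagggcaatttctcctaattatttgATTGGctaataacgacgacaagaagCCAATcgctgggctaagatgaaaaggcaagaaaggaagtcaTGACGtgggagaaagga

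CCAAT or ATTGG occurred in 9 of the 9 promoters, where 33.8% of all 32851 RefSeq promoters held it in a window of the same length. TGACG was found in 7 of 9, against 17.8% of all promoters. It was not matched in H2-Q6 and H2-T23, and in H2-Q4 and H2-T22 it lay after ATTGG rather than before it. GGGNNTTCC was matched in H2-K1, H2-D1, H2-Q4, H2-Q6, and H2-Q7, 5 of 9, compared with 4.98% of all promoters. The form with 3 bases in the gap was matched in B2m and H2-Q4, with a background of 4.65%, and the match in H2-Q4 overlapped that of the shorter form. GAANNGAAA, searched after the sequences had been seen, was matched in 6 of 9, the genes H2-K1, H2-D1, H2-Q4, H2-Q6, H2-Q7, and H2-M3, against 6.31% of all promoters. The form with GAAA on both sides was found in the other 3, B2m, H2-T22, and H2-T23, with a background of 2.98%. In the K, D, and Q promoters the first bases of the NF-κB-type and the interferon-type matches lay 20 or 21 bases apart, and in H2-K1, H2-D1, and H2-Q7 TGACG followed after a further 49 bases. From TGACG to ATTGG the distance was 25 bases in B2m, H2-K1, H2-D1, and H2-M3, and 24 in H2-Q7. TATAAA was matched in 3 of 9 (B2m, H2-D1, and H2-Q4, against 12.4% of all promoters), and GGGCGG in 0 of 9 (32.7% of all promoters). In B2m the match was TTTATA, on the opposite strand from base -152. In H2-D1 and H2-Q4 it began at -26 and -28. ATTGG began at -16 in H2-K1 and -40 in H2-Q7, against -76 in H2-D1 and -79 in H2-Q4 and H2-Q6. The windows therefore did not end at the same point of the module in each gene. The K, D, and Q promoters resemble one another in sequence, so their matches are not independent counts to set against the share of all promoters. A match is a description of letters and says nothing about binding in these cells.

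Replicate 1 was sequenced to 16732644 gene-assigned reads and replicate 2 to 16245849, so that the floor of 3 counts stood at 0.179 and 0.185 CPM (a gene's count scaled to the same library total in both). These were 40.6% and 41.2% of the uniquely aligned reads. Another 55.9% in each library fell on no annotated gene, and 3.52% and 2.92% were ambiguous between genes. Alignments that were not unique, 27736636 and 24451411, were given to no gene. How many of them came from class I genes cannot be seen from the counts. The 10 genes took 144409 counts in replicate 1 and 152470 in replicate 2, which is 0.863% and 0.939% of all counts on genes. Mitochondrial and ribosomal RNA genes took 16.0% of the counts in replicate 1 and 12.6% in replicate 2. The sex-linked transcripts differed between the libraries, with 34 and 25266 counts for Xist and 2450 and 0 for Ddx3y, in replicates 1 and 2. By these counts replicate 1 was male and replicate 2 female, so the libraries did not come from the same mouse. Sex and replicate cannot be told apart in any ratio of replicate 2 to replicate 1. H2-Ab1, the class II gene disrupted in these mice, had 395 and 292 counts. T cell genes were abundant, as shown by Cd3e at 408 and 368 CPM, and the haemoglobin genes Hba-a1, Hba-a2, Hbb-bs, and Hbb-bt were at 0 in both libraries. The 5 genes of the NK and iNKT cell list summed to 310 CPM in replicate 1 and 468 in replicate 2. Most of each sum was Eomes, at 196 and 355 CPM, a gene also expressed by memory-like CD8 T cells. Ncr1 (2.69 and 6.89 CPM), Klrb1c (22.1 and 27.5 CPM), and Zbtb16 (18.2 and 21.6 CPM) were also higher in replicate 2. Klrd1 went the other way, at 71.4 and 58.0 CPM. Whether the sum follows the number of NK or iNKT cells was not tested. Lower sums, in replicates 1 and 2, were 17.9 and 19.6 CPM for 7 genes of double-positive thymocytes, 15.8 and 18.0 CPM for 8 genes of dendritic cells and macrophages, 11.2 and 13.2 CPM for 6 genes of thymic epithelium, and 28.1 and 22.8 CPM for 5 MHC class II genes. The B cell list summed to 146 and 151 CPM, of which Ighm made up most. A single gene also made up most of each of those lower sums. For double-positive thymocytes it was Dntt (13.4 and 13.0 CPM) and for dendritic cells and macrophages Csf1r (9.74 and 11.8 CPM). For thymic epithelium it was Ccl25 (7.47 and 9.05 CPM) and for class II H2-Ab1 (23.6 and 18.0 CPM). In bulk RNA, fewer cells of a type and less RNA per cell cannot be told apart.

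Class I transcripts were among the most abundant of these cells. H2-K1 had 44126 counts in replicate 1 and 45980 in replicate 2 (2734 ± 137 CPM, SD, n = 2), and ranked 11 among all genes by mean CPM. The light chain B2m had 32904 and 30579 counts (1924 ± 59.5 CPM, rank 19). H2-D1 had 29853 and 29217 counts (1784 and 1798 CPM, rank 24). The values of each gene in the 2 libraries were close, with replicate 2 above replicate 1 in CPM for H2-K1 and H2-D1 and below it for B2m.

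Of the Qa-region genes, H2-Q7 was the highest, with 16545 counts in replicate 1 and 22428 in replicate 2 (1185 ± 277 CPM, rank 42). H2-Q4 had 6999 and 8251 counts (463 ± 63.4 CPM). H2-Q6, the neighbour of H2-Q7 and its closest match in coding sequence among the 9 heavy chains, had 5005 and 7194 counts (371 ± 102 CPM). All 3 were higher in replicate 2.

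H2-T23 had 5152 and 5128 counts in replicates 1 and 2 (312 ± 5.48 CPM), and H2-T22 had 2738 and 2575 (161 ± 3.63 CPM). Each of these TL-region genes differed by a few per cent between the libraries. H2-M3 had 661 and 758 counts (43.1 ± 5.06 CPM). Cd1d1 was the lowest member, with 426 and 360 counts (23.8 ± 2.33 CPM, rank 6476 by mean CPM), well above the floor.

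The position of each gene bears on how its reads were counted. Of these genes, 8 lie on chromosome 17 in GENCODE M21 (GRCm38, the build given as mm10), in the order H2-K1 (chr17:33996017-34000347, minus strand), H2-D1 (chr17:35262730-35267499, plus), H2-Q4 (chr17:35379617-35385290, plus), H2-Q6 (chr17:35424850-35430055, plus), H2-Q7 (chr17:35439155-35443773, plus), H2-T23 (chr17:36029773-36032855, minus), H2-T22 (chr17:36037128-36042747, minus), and H2-M3 (chr17:37270220-37274484, plus). B2m lies on chr2:122147686-122153083 (plus) and Cd1d1 on chr3:86995834-86999441 (minus). The counts were summed over exons, and a read with more than 1 alignment was given to no gene. Coding sequences of the 9 heavy chains were identical at a median of 66.6% of aligned bases over 36 pairs. The closest pair was H2-Q6 with H2-Q7 (93.1%), H2-K1 and H2-D1 matched at 88.3%, and the lowest pair reached 42.3%. Windows of 50 bases, the length of the reads, were often found in the transcripts of another gene as well. This held for 44.7% of the windows of the principal H2-T22 transcript, mostly shared with H2-T10 (37.9%), for 40.2% in H2-Q7, 39.2% in H2-Q4 (16.1% with Gm11131, which overlaps it), 35.0% in H2-Q6, 29.8% in H2-T23, and 25.8% in Cd1d1. H2-Q7 shared 20.1% of its windows with H2-Q5 and 19.6% with H2-Q6. The total shares were 14.3% in H2-D1, 8.79% in H2-K1, 0.576% in H2-M3, and 0% in B2m. The counts of H2-T22, H2-T23, the Q genes, and Cd1d1 are uncertain as absolute levels, more so than those of B2m, H2-K1, and H2-M3. Exons of H2-Q4 overlapped those of Gm11131 on the opposite strand over 496 bases, and exons of H2-T22 overlapped A930015D03Rik over 1003 bases, and whether the counting used strand is not given in the sources used here. Windows were matched on both strands, so those that H2-Q4 shared with Gm11131 can be the same bases of the genome and not a second copy.

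**Figure D1:**
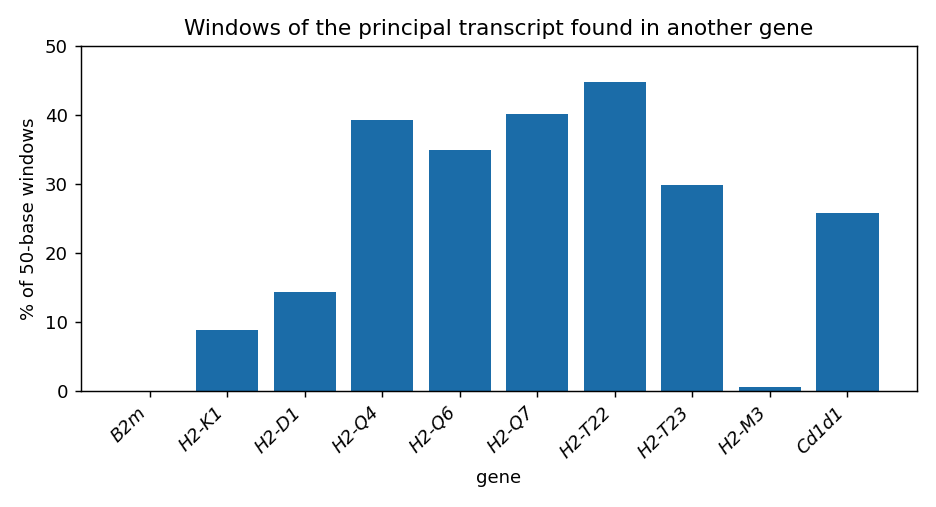
Percentage of the 50-base windows of each gene's principal transcript (vertical axis) that were also found in transcripts of another gene, for the 10 class I genes. H2-T22 is the highest at 44.7% and B2m is at 0%.

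Levels of different genes were set side by side per kb of annotated exon. B2m was the highest, at 2287 CPM per kb in replicate 1 and 2189 in replicate 2 (2238 ± 69.2, SD, n = 2). It was followed by H2-K1 (930 ± 46.5 CPM per kb), H2-D1 (695 ± 3.92), and H2-Q7 (278 ± 64.9). H2-Q4 (178.4 ± 24.4) and H2-Q6 (177.9 ± 48.7) came next and could not be ordered, since the ranges of their 2 libraries overlapped. Below them stood H2-T23 (108 ± 1.90 CPM per kb), H2-T22 (47.2 ± 1.06), H2-M3 (30.0 ± 3.52), and Cd1d1 (9.26 ± 0.908). The highest and the lowest gene were 242-fold apart, which became 183-fold per kb of principal transcript and 140-fold over windows found in no other gene. These choices changed only the length by which a gene's whole count was divided. By these lengths H2-T22 averaged 91.5 and 170 CPM per kb, H2-T23 212 and 312, H2-M3 30.0 and 31.2, and Cd1d1 12.2 and 16.9, so the choice of length moved several levels by more than the SD between the libraries. In 8 of the 9 neighbouring pairs the ranges of the libraries did not overlap, but with 2 values a gene an exact permutation test cannot give a p below 0.333, and all genes of a library share that library.

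**Figure D2:**
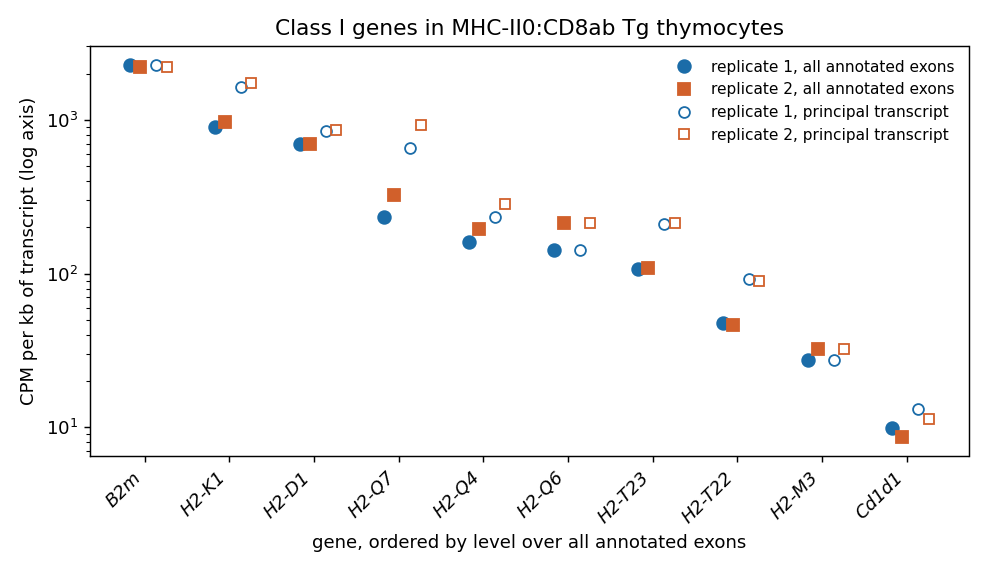
Level of each class I gene in CPM per kb (vertical log axis) in replicate 1 (circles) and replicate 2 (squares). The same counts were divided by the length of all annotated exons (filled) or of the principal transcript (open). Genes run from B2m (2238 CPM per kb on average) to Cd1d1 (9.26), and the open symbols of H2-K1 and H2-Q7 lie well above the filled ones.

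The order at the top and at the bottom, B2m and H2-K1 first and H2-T22, H2-M3, and Cd1d1 last, was found under each of the 3 lengths tried, whereas the middle was not. Per kb of principal transcript, H2-Q7 reached 791 ± 185 CPM per kb, and its libraries overlapped in range with those of H2-D1 (852 ± 4.81). With the whole count divided by the number of windows found in no other gene, H2-Q7 (1368 ± 320) stood above H2-D1 (1018 ± 5.75). H2-Q7 had 866 such windows against 4265 bases of annotated exon, and H2-D1 had 1759 against 2579. Reads were not limited to those windows, so this order does not come from a count of unique reads. H2-T23 stood above H2-Q6 by both of these lengths, at 212 ± 3.72 against 178 ± 48.7 and at 312 ± 5.48 against 280 ± 76.7, with overlapping ranges of the libraries.

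The light chain was about as abundant per kb as the 9 heavy chains together, with a ratio of 0.987 in replicate 1 and 0.845 in replicate 2 over all annotated exons. The ratio depended on the length used, and averaged 0.547 ± 0.0650 (SD, n = 2) per kb of principal transcript and 0.431 ± 0.0569 over unique windows. H2-K1 stood above H2-D1 per kb in both libraries, by 1.30-fold and 1.38-fold, and H2-T23 stood above H2-T22 by 2.22-fold and 2.35-fold. H2-Q7 exceeded H2-Q6 by 1.62-fold in replicate 1 and 1.52-fold in replicate 2 over all exons, and by 4.60-fold and 4.34-fold per kb of principal transcript. H2-K1 exceeded Cd1d1 by 90.6-fold in replicate 1 and 112-fold in replicate 2 over all exons. The factors were 125 and 154 per kb of principal transcript, and 102 and 126 over unique windows.

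Among the reads counted on the 9 heavy chains, H2-K1 took 39.6% in replicate 1 (Wilson 95% interval 39.3 to 39.9%) and 37.7% in replicate 2 (37.5 to 38.0%). The share of H2-D1 was 26.8% (26.5 to 27.0%) in replicate 1 and lay between 23.7 and 24.2% in replicate 2. H2-Q7 took 14.8% (14.6 to 15.0%) and 18.4% (18.2 to 18.6%), and H2-Q6 took 4.49% (4.37 to 4.61%) and 5.90% (5.77 to 6.04%). Intervals cover counting error only. The Q genes made up a larger part of the heavy-chain counts in replicate 2, and the classical genes a smaller one. H2-Q4 (6.28% and 6.77%), H2-T23 (4.62% and 4.21%), H2-T22 (2.46% and 2.11%), H2-M3 (0.593% and 0.622%), and Cd1d1 (0.382% and 0.295%) made up the rest.

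The libraries were then compared with each other, which compares these libraries and not conditions. The p-values below are from two-sided exact binomial tests with Benjamini-Hochberg adjustment over the 15949 genes of at least 10 summed counts, and they measure only counting error, since the spread between mice is not in them. A difference of at least 2-fold with an adjusted p under the threshold of 0.05 was found for 242 of these genes, 1.52%, and for 0 of the 10 class I genes. Without the fold limit, 6 of the 10 passed, 5 higher and 1 lower in replicate 2. Over all genes tested, 13.5% were higher and 2.82% lower in replicate 2 by this rule. Of the 7756 genes of at least 500 counts, a background added after the data were seen and to which all 10 belong, 22.8% were higher and 3.97% lower. The median log2 ratio of replicate 2 to replicate 1 was 0.069 over the 10 genes and 0.076 over all genes tested.

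The largest log2 ratios were those of H2-Q6 (0.57, 95% interval 0.51 to 0.62, adjusted p = 1.2e-99 by the exact binomial test) and H2-Q7 (0.48, 0.45 to 0.51, adjusted p = 2.4e-232 by the same exact test). Among the 7756 genes of at least 500 counts they ranked 63 and 111 by log2 ratio. H2-Q4 followed with a log2 ratio of 0.28 (0.23 to 0.33, adjusted p = 1.2e-30, exact binomial). H2-M3 had a log2 ratio of 0.24 (0.09 to 0.39) and H2-K1 of 0.10 (0.08 to 0.12), with adjusted p = 0.0163 and 4.4e-24 in the exact test. B2m was lower in replicate 2, with a log2 ratio of -0.06 (-0.09 to -0.04, adjusted p = 1.2e-06, exact binomial). The ratios of H2-D1 (0.01), H2-T23 (0.04), H2-T22 (-0.05), and Cd1d1 (-0.20, interval -0.41 to 0.01) did not pass the test. With TMM library sizes, whose median ratio over all genes was about 0, the count again was 6, made up of H2-Q4, H2-Q6, and H2-Q7 higher and B2m, H2-D1, and H2-T22 lower in replicate 2. When edgeR's exact test was given a biological coefficient of variation of 0.1, a size assumed and not measured, 0 of the 10 passed the adjusted threshold, and 2, H2-Q6 and H2-Q7, had an unadjusted p under 0.05, the smallest being 0.00617. The differences thus exceeded counting error but not a spread between animals of that size after adjustment. The share of all genes passing without a fold limit under TMM was not counted. Nor was the share with an unadjusted p under 0.05 in edgeR's test.

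**Figure D3:**
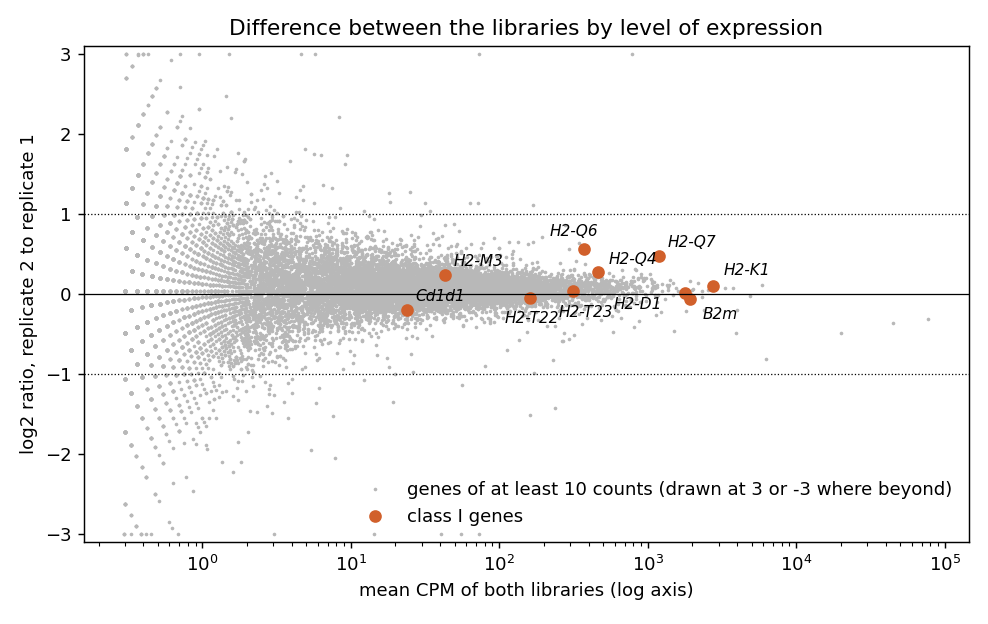
Log2 ratio of replicate 2 to replicate 1 (vertical axis) against mean CPM (horizontal log axis) for the 15949 genes tested (grey) and the 10 class I genes (orange). H2-Q6 and H2-Q7, at log2 ratios of 0.57 and 0.48, lie above most genes of their level, and all 10 lie between the dotted lines of a 2-fold difference.

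The Q genes were higher in replicate 2 as a region. Of 8 H2-Q genes listed, 7 had at least 10 counts, and 7 of these 7 were higher in replicate 2 in the exact test. By the same rule 13.5% of all genes tested were higher, and 22.8% of those of at least 500 counts. The log2 ratios of the 7 ran from 0.28 to 0.93, with a median of 0.48. The summed level of the Q genes was 1800 CPM in replicate 1 and 2460 in replicate 2, a ratio of 1.37. Of the Q genes outside the 10, H2-Q5 had 1002 and 1325 counts, H2-Q10, known as a secreted class I chain of liver, had 477 and 607, H2-Q2 had 50 and 93, and H2-Q1 had 33 and 60. None of the 5 H2-T genes tested passed, with log2 ratios from -0.05 to 0.06 and a ratio of summed levels of 1.01, and H2-K1 and H2-D1 together had a ratio of 1.05. With TMM library sizes H2-T22 passed as lower in replicate 2 (log2 ratio -0.12, adjusted p = 0.0237, exact binomial). Set against the same library's counts of H2-K1 and H2-D1, which needs no scaling, the Q genes held 40.7 counts per 100 in replicate 1 and 53.1 in replicate 2. By this measure H2-Q7 went from 22.4 to 29.8, H2-Q6 from 6.77 to 9.57, and H2-T23 from 6.96 to 6.82. With TMM library sizes 6 of the 7 Q genes passed, and with edgeR's exact test at a coefficient of variation of 0.1 the number was 0, while 5 had an unadjusted p under 0.05. The share of all genes passing without a fold limit was not counted under TMM. Nor was the share with an unadjusted p under 0.05 in edgeR's test, so these counts have no background. The Q genes share windows with one another, so that their ratios are not independent.

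**Figure D4:**
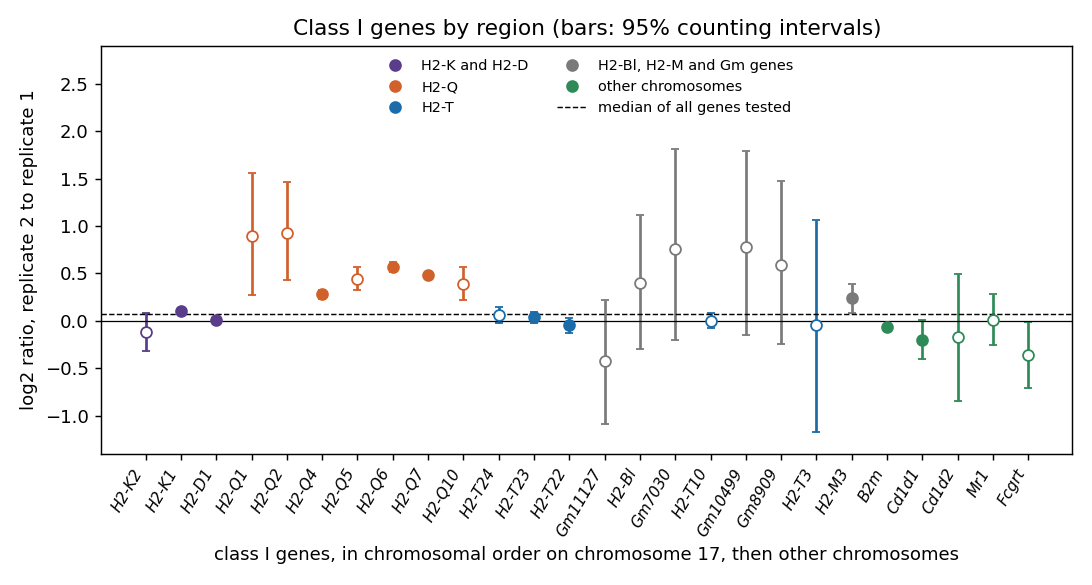
Log2 ratio of replicate 2 to replicate 1 (vertical axis) with 95% counting intervals (bars) for class I genes of at least 10 counts, in chromosomal order on chromosome 17 and then on other chromosomes. Filled symbols are the 10 genes described, open symbols other class I genes, and the dashed line is the median of all genes tested (0.076). The 7 Q genes all lie above the line, while the H2-T genes with narrow intervals lie close to 0.

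Other measures also differed between the libraries, but with 2 libraries no likeness of pattern to the Q genes can be measured. Of the 5 genes of the NK and iNKT cell list, with the sums given above, none was at 0. In the exact test 3 were higher and 1 lower (2 and 1 with TMM), where 13.5% of all genes tested were higher and 2.82% lower. Eomes, a T-box factor of NK cells and of memory-like CD8 T cells, had 3275 and 5760 counts, and Ncr1, an NK cell receptor, had 45 and 112. Klrd1 was the gene that was lower, with 1195 and 942 counts. The sex-linked transcripts and the share of ribosomal and mitochondrial RNA also differed, as given above. Their part in the result was not tested.

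Beyond these genes, the wider class I and class I-like list held 38 symbols, of which 33 were listed and 17 had at least 10 counts. H2-Q8 and H2-Q9 were among the symbols not listed, so they have no counts here. Of the 33, 10 genes, 9 of them of the H2-M family, had no count in either library. In the exact test 4 were higher in replicate 2, H2-Q1, H2-Q2, H2-Q5, and H2-Q10, and 0 were lower, which is 23.5% of the 17 against 13.5% of all genes tested. With TMM H2-Q1 no longer passed, and 3 remained. H2-T10 was the highest of the list, at 158.9 and 158.8 CPM in replicates 1 and 2, followed by H2-T24 at 135 and 141 CPM. H2-K2, annotated as a pseudogene, had 26.1 and 23.9 CPM. Mr1, which presents vitamin metabolites to MAIT cells, had 14.2 and 14.3 CPM, and Fcgrt, the neonatal Fc receptor, had 9.62 and 7.51. Cd1d2, the close copy of Cd1d1, 40.7% of whose windows were found in Cd1d1, had 2.57 and 2.28 CPM. The other 5 genes of at least 1 CPM, H2-Bl, Gm8909, Gm7030, Gm11127, and Gm10499, averaged 1.22 to 2.60 CPM.

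The genes that drive class I transcription and load the molecules were expressed throughout. All 22 of the list passed the count minimum, with means from 22.1 to 475 CPM. NLRC5, the class I transactivator, was encoded by 6351 counts in replicate 1 and 6797 in replicate 2 (399 ± 27.5 CPM, SD, n = 2). Tap1 and Tap2, the subunits of the peptide transporter, averaged 439 ± 19.7 and 314 ± 3.64 CPM, and Tapbp, which encodes tapasin and joins the transporter to the heavy chain, averaged 468 ± 8.45 CPM. In the exact test 6 of 22 (27.3%) were higher in replicate 2 and 0 lower, against 13.5% and 2.82% of all genes tested and 22.8% and 3.97% of those of at least 500 counts. These were Rfx5, a subunit of the RFX complex (log2 ratio 0.47), Psmb9 and Psmb10 of the immunoproteasome (0.20 and 0.13), Nfya of the NF-Y complex (0.18), Nlrc5 (0.14), and Tap1 (0.09). The calls depended on the scaling, since with TMM library sizes 2 were higher, Rfx5 and Psmb9, and 2 were lower, Tapbp and Pdia3 (both with log2 ratios of -0.11). The median log2 ratio of the list was 0.056, below the 0.076 of all genes, and 0 of 22 passed with edgeR's exact test at a coefficient of variation of 0.1.

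On the receptor side, Cd8b1 averaged 780.3 ± 7.41 CPM and Cd8a 165 ± 9.31 CPM. These rows can hold reads of the Rosa26 cDNAs and of the exons left in the endogenous genes, which the counts do not separate. Of 13 genes of the list, 12 were tested, and 5 (41.7%) were higher and 1 (8.33%) lower in replicate 2. The shares were 13.5% and 2.82% over all genes tested, and 22.8% and 3.97% over those of at least 500 counts. With TMM library sizes 3 were higher, Klrc2, Klra1, and Klra7, and 2 were lower, Klrd1 and Cd8b1. The gene that was lower, Klrd1, encodes CD94, the partner of NKG2 chains in the receptor for Qa-1, and had a log2 ratio of -0.30 (71.4 and 58.0 CPM). Klrc1, which encodes NKG2A, had 7.29 and 7.76 CPM and did not pass. Klra1, Klra3, and Klra7, of the Ly49 family that binds class I, had log2 ratios of 0.55, 0.49, and 0.68, Klra9 of the same family had 0.27 and did not pass, Klrc2 had 0.47, and Cd8a had 0.12. The median log2 ratio of the 12 genes tested was 0.19, and 0 passed with edgeR's exact test at a coefficient of variation of 0.1.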

How the data were processed

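Poly(A) RNA-seq libraries from sorted CD4- mature thymocytes of 2 replicates of a single condition were used. The authors obtained single-end reads of 50 bases, mapped them with TopHat2 2.1.1 to mm10, and deposited raw counts per gene from HTSeq 0.6.1. Their gene annotation and strand setting are not given in the sources used here. Reads with more than 1 alignment are held in a summary line of their own, which lowers the count of genes with close copies. Summary lines were left out of all totals.

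CPM used the total on genes. Gene models came from GENCODE M21 (46394 of 48321 symbols matched), and shared windows were sought in its transcripts only, as no genome was at hand. Libraries were compared in Python 3.11.15 with scipy 1.17.1 by a two-sided exact binomial test, tested on simulated data, with Benjamini-Hochberg adjustment over genes of at least 10 counts. Alternatives used edgeR 4.0.16 and DESeq2 1.42.0. Reads are not independent molecules, so intervals and floors (3 counts) describe counting error alone.

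All 10 members were named, with genes of the wider class I list at 1 CPM or more and chosen or differing genes of the pathway and receptor lists. Members and lists were chosen with earlier results of these data known.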

Additional observations from a re-analysis of the deposited data

How the results depend on the processing

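The median level of the 10 genes moved by less than the spread between the replicates with TMM, with DESeq2, and without mitochondrial and ribosomal RNA genes, while this last choice of totals moved 8 of 10 single levels by more than that spread. Shares and ratios within a library cannot change with its total. Length mattered more. The median level of 178 CPM per kb became 235 per kb of principal transcript and 379 over unique windows, with which 6 of 10 genes kept their place in the order. The mean ratio of B2m to summed heavy chains of 0.916 became 0.547 and 0.431. The number of genes that differed between the libraries, 242, became 55 at a minimum of 100 counts, 60 with edgeR's exact test at a coefficient of variation of 0.1, and 2596 with no minimum fold. By that edgeR test 0 of 10 class I genes passed. Scaling moved the split of the differing genes, from 150 higher and 92 lower in replicate 2 to 98 and 99 with TMM and with DESeq2, and to 102 and 96 without mitochondrial and ribosomal RNA genes. It also turned the sign of the H2-D1 log2 ratio, to -0.065 with TMM, -0.064 with DESeq2, and -0.045 without those genes, and of the H2-T23 log2 ratio, to -0.041, -0.040, and -0.021. With TMM and DESeq2, H2-K1 and H2-M3 no longer passed and H2-T22 did. Each replicate alone gave a median level of 363 to 475 CPM and of 152 to 204 CPM per kb, kept 8 to 10 genes in place, and gave an H2-K1 share of 37.7 to 39.6% and a B2m ratio of 0.845 to 0.987. A comparison between the libraries cannot be made without one of them. No paired analysis was possible because both libraries belong to a single group. The search for unique windows covered transcripts and not the genome, so unique lengths may be overestimated. That of H2-Q4 may instead be underestimated, since windows in its overlap with Gm11131 were counted as shared. The depth limits the class I genes of few counts, such as H2-Q1, more than the 10 described.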
